A study of Homo sapiens with 9 samples.

Results

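The genes described here are 55 p53 targets and apoptosis regulators, measured in PC3 cells after knockdown of MELK or UBE2C. They were taken by gene symbol, from a list drawn up with earlier results of these data known. Of them, 24 are p53 targets, feedback genes or p53 relatives, and 31 are death receptors, BCL2 relatives, caspases and their partners. In the platform annotation used here, 51 of the 55 had at least 1 probe, which gave 94 of the 47323 probes on the array. The expression of BTG2, FDXR, TP63 and RIPK1 was not analysed here. A member was tested where a probe was above background on at least 3 of the 9 arrays, and 39 members were, among 11428 genes tested. These 39 passed a filter on low values and do not stand for all 55.

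PC3 is an established human prostate cancer cell line, known to lack functional p53, and every group of the study, the control included, shares that loss. Cells were taken 48 h after transfection with 50 nM of a pool of siRNAs against MELK, a kinase abundant in dividing cells, with the same dose of a UBE2C pool, which targets the ubiquitin-conjugating enzyme of the anaphase-promoting complex, or with the AllStars negative control siRNA, and each group has 3 Illumina arrays. The labels name no other treatment and leave unsaid whether separate cultures gave the 3 arrays of a group, so the p-values reflect only how far these arrays spread. The control siRNA (Qiagen) came from another supplier than both ON-Target pools (Thermo Scientific), so an effect of the knockdown and an effect of the kind of siRNA cannot be told apart where both pools differ from the control. In RNA from a whole culture, fewer cells with a transcript and less of it per cell cannot be told apart either.

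As background, p53 is a transcription factor that is stabilised by DNA damage and other stress and switches on genes for cell cycle arrest, DNA repair, metabolism and cell death, among them MDM2, whose product degrades p53 in a feedback loop. Many of these genes also have other activators, so cells without p53 can still transcribe them. Apoptosis runs either from death receptors through FADD and CASP8, or through mitochondria, where BH3-only proteins and their anti-apoptotic relatives decide whether BAX and BAK release the factors that let APAF1 activate CASP9.

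Both targeted transcripts were lower in their own group. The MELK probe read 10.51, 10.38 and 10.50 on the control arrays and 9.44, 9.36 and 9.32 with MELK siRNA, as normalised log2 signals, 47.1% of the control level. The UBE2C probe read 12.97, 12.89 and 12.85 on the control arrays and 11.54, 11.53 and 11.66 with UBE2C siRNA, 39.9% of the control level. Between 16559 and 18661 probes per array were above background. UBE2C siRNA replicate 1 stood apart: its correlations with the rest were 0.848 to 0.877, while theirs among themselves were 0.981 to 0.99, and the median absolute departure of the tested members from the other arrays of the group was 0.665 (log2) there, against 0.119 to 0.17 elsewhere, with UBE2C siRNA replicates 2 and 3 set against each other alone. Over all genes tested the departure was 0.669 on that array and 0.122 to 0.17 elsewhere. Tests were run with all 9 arrays and, chosen with earlier results of these data known, with the 8 that remain without UBE2C siRNA replicate 1. Changes for MELK siRNA are the same size in both, and changes for UBE2C siRNA are from the 8 arrays unless 9 are named. Of the epithelial markers, KRT8, KRT19, EPCAM and CDH1 were above background on all 9 arrays and KRT18 on 8. Of the luminal prostate markers, TMPRSS2 was above background on all 9 arrays and KLK2 and KLK3 on none. Of 5 fibroblast markers 3 were above background on some arrays (COL1A1 and LUM on 6, COL1A2 on 2) and the others on none, of 4 endothelial markers PECAM1 on all 9 and the others on none, and of 4 blood cell markers CD14 on 8 and the others on none.

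Most of the machinery was transcribed. At least 1 probe was above background on all 9 arrays for 36 members, on some arrays for 8, and on none for 7. The 7 were TP73, a p53 relative, PLK3, a stress-response kinase, SESN2 and SPATA18, known p53 targets, FAS and TNFRSF10D, death and decoy receptors, and CASP8, the initiator caspase of the death receptor route, all 4 of whose probes stayed at background. FADD, the adaptor through which the receptors engage CASP8, and the TRAIL receptors TNFRSF10A and TNFRSF10B were above background on all 9 arrays. A probe at background sets only an upper limit on what the array could see.

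MDM2, the canonical p53 feedback target, was near the floor in every group. Its ILMN_1736829 probe had unnormalised intensities of 104, 126 and 112 on the control arrays, 114, 104 and 107 with MELK siRNA, and 101, 104 and 119 with UBE2C siRNA, where the background levels of the arrays were 97.7 to 102. Both of its probes were above background on at most 1 array, a control. MDM4, its relative, was above background on 2 arrays. BMF and HRK, both BH3-only genes, and XIAP, a caspase inhibitor, were each above background on 2. These 5 members were not tested. BCL2L11 and BIK were above background on 8 of 9 arrays, and BCL2 on no more than 6 with any probe.

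**Figure D1:**
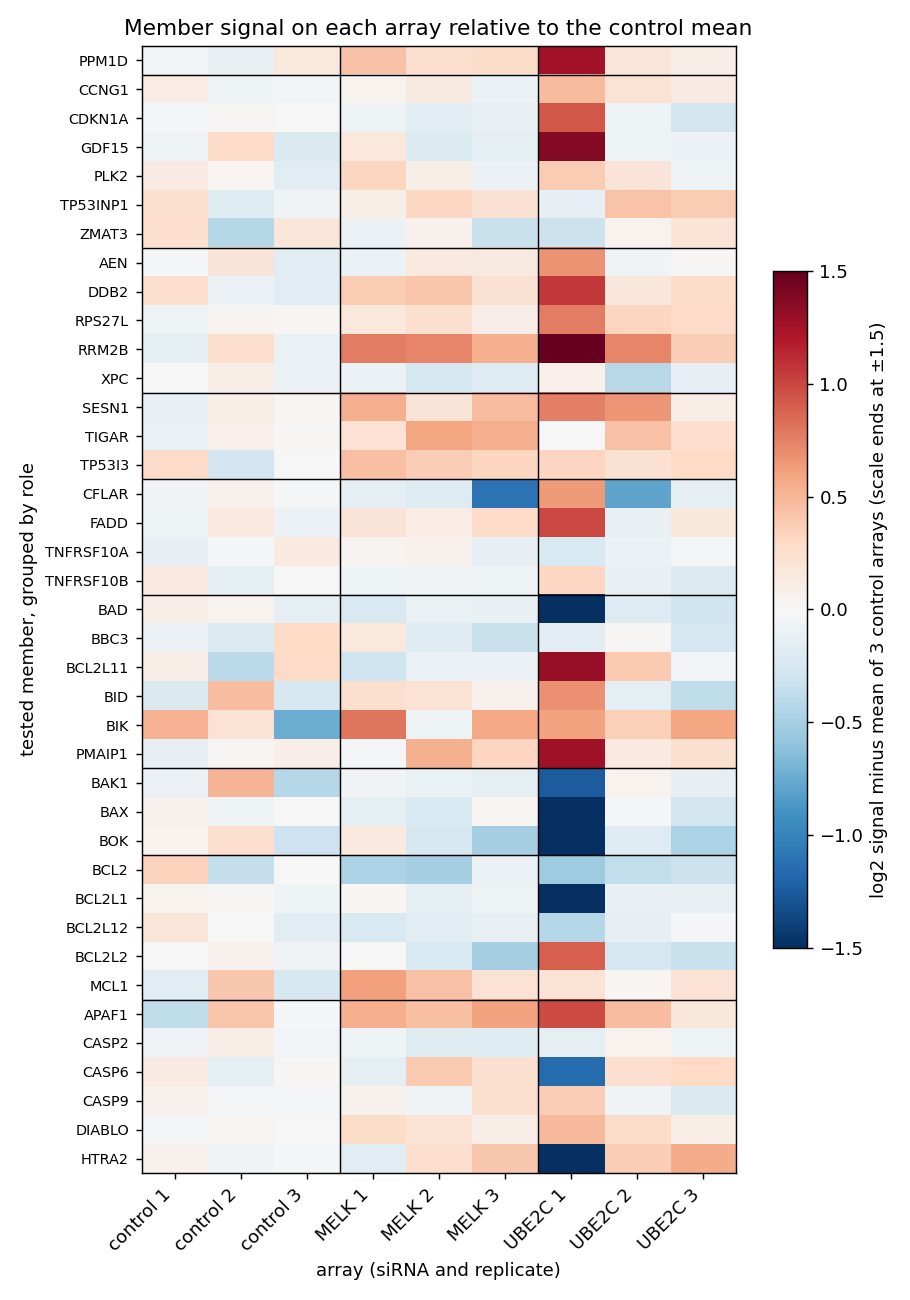
Normalised log2 signal of the tested probe of each of the 39 members on each of the 9 arrays, minus the mean of the 3 control arrays, grouped by role. The column of UBE2C siRNA replicate 1 holds the strongest colours in both directions. The RRM2B, SESN1, TIGAR and RPS27L rows are above the control mean on all 3 MELK siRNA arrays, as are other rows, among them PPM1D, APAF1, DIABLO and MCL1.

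With all 9 arrays, no member passed an adjusted p of 0.05 (limma, Benjamini-Hochberg over 11428 genes) in either knockdown. The background was as low: 0% of all genes passed with MELK siRNA, and 0.00875% with UBE2C siRNA. At an unadjusted p under 0.05, 2 of the 39 members passed for MELK siRNA and 3 for UBE2C siRNA, against 5.39% and 11.1% of all genes. The median residual SD per gene was 0.305 (log2) with 9 arrays and 0.167 with 8.

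In the 8-array fit, which leaves out UBE2C siRNA replicate 1 and also uses an intensity trend and a robust prior, RRM2B and TIGAR rose with MELK siRNA and RPS27L rose with UBE2C siRNA. Both changes were needed for these calls: the same 8 arrays without trend and robust prior gave adjusted p = 0.0951, 0.125 and 0.163. RRM2B is a ribonucleotide reductase subunit that supplies DNA precursors outside S phase, TIGAR is a fructose bisphosphatase that lowers glycolysis, and RPS27L is a ribosomal protein S27 relative, all known p53 targets. For MELK siRNA these are 2 of 39 members higher and 0 lower, where 2.29% of all genes were higher and 3.22% lower. For UBE2C siRNA it is 1 of 39 higher and 0 lower, where 1.68% were higher and 2.78% lower. Both shares lie near the background. The 3 calls are all among p53 targets. None of the 24 apoptosis regulators tested passed in either knockdown, and 3 had an unadjusted p under 0.05 in each, where 22.1% of all genes did with MELK siRNA and 22.7% with UBE2C siRNA.

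Across the 15 tested p53 targets and feedback genes, the log2 fold change with 8 arrays was positive for 11 in MELK siRNA cells and for 11 in UBE2C siRNA cells, with a median of 0.17 in each. Among the 24 tested apoptosis regulators it was positive for 10 and for 9, with medians of -0.07 and -0.06. Over all genes tested, 50.6% and 47% were positive, and the medians were 0.00 and -0.02. With UBE2C siRNA replicate 1, 13 of the 15 were positive for UBE2C siRNA with a median of 0.27, against 55.6% of all genes and a median of 0.05. The knockdowns share their control arrays, so these values stand side by side and are not independent of each other. For 11 of 39 members, 8 higher and 3 lower, the MELK siRNA arrays lay apart from the controls, against 25.7% of all genes. The UBE2C siRNA arrays did so for 17 of 39 without replicate 1, against 38.9% of all genes, and for 8 of 39 with it, against 19.2%.

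**Figure D2:**
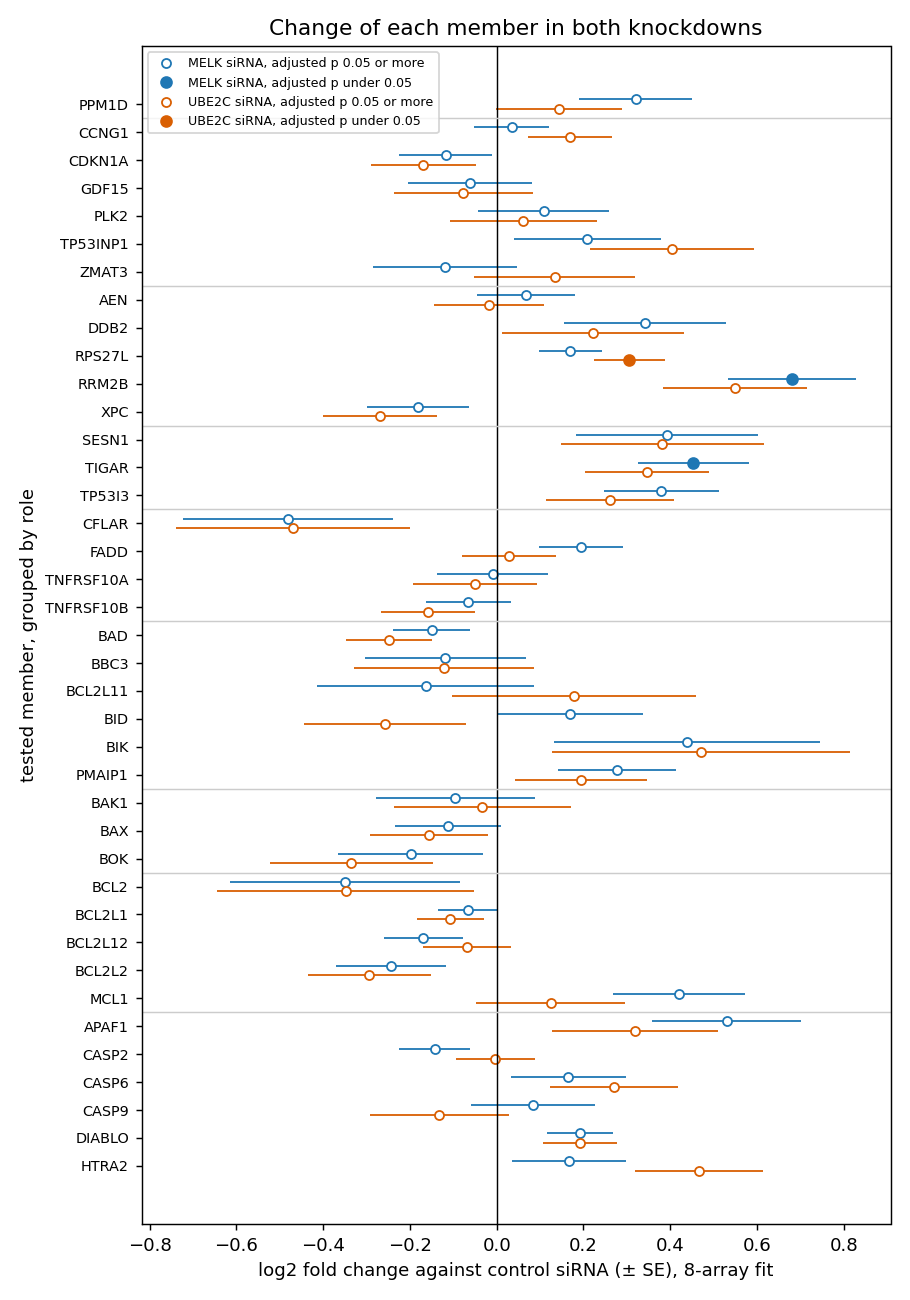
Log2 fold change (point) and its standard error (bar) of each of the 39 tested members against control siRNA, for MELK siRNA (blue) and UBE2C siRNA (orange), from the 8-array fit. The 3 filled points, RRM2B and TIGAR for MELK siRNA and RPS27L for UBE2C siRNA, are the calls at an adjusted p under 0.05.

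Promoter sequences are shown for 2 of the 3 called members, RPS27L and TIGAR, and for 2 other targets whose sequence near the start matches the known binding pattern of p53, SESN1 and DDB2. The pattern is the p53 half-site consensus, 10 bases that read alike on both strands. Capitals mark it. The bases come from RefSeq, build GRCh38.p14. They are the 250 bases before an annotated start for RPS27L (chr15:63157478-63157727, minus strand), SESN1 (chr6:109008989-109009238, minus strand) and TIGAR (chr12:4320963-4321212, plus strand). SESN1 and DDB2 have further annotated starts, and those used here were picked because their windows hold the match. For DDB2 the site alone is shown (chr11:47214979-47214999, plus strand).
RPS27L: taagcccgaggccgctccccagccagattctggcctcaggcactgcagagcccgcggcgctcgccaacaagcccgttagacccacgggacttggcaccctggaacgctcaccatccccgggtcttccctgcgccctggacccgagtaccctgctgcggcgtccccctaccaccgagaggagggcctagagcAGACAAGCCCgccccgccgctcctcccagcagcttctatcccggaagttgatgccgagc
SESN1: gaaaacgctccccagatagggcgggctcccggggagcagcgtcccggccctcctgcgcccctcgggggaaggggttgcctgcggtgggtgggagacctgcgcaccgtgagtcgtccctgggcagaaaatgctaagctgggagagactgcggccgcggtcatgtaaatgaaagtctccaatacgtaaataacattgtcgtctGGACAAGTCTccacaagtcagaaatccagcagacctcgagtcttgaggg
TIGAR: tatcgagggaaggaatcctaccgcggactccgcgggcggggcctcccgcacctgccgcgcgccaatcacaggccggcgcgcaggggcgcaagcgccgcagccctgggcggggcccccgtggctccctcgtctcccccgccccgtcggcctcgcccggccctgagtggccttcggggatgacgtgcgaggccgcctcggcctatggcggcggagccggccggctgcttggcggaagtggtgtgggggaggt
DDB2: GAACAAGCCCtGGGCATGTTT

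The half-site begins at position -59 from the start used in RPS27L and at -49 in SESN1. TIGAR holds no match in these letters. In DDB2 a pair of half-sites 1 base apart begins at +6, just inside the transcribed region. Promoter windows of 300 bases matched 47 of the 55 members, in 83 windows. RRM2B, TP53INP1, TNFRSF10A, TNFRSF10B, TNFRSF10D, MCL1, BIK and BCL2L2 had no window and were not searched. A half-site was found in 10 of the 83 (12%), against 6.63% of all 35116 windows, and the pair of half-sites with at most 13 bases between them in 1 member window, against 0.0285% of all. The other members with a half-site were AEN, BAK1, CASP8, CASP9, FAS, FDXR and PLK2. In CASP8, CASP9, FAS and FDXR, as in SESN1 and DDB2, the windows of other annotated starts held none. These matches describe sequence and show no binding, and the response elements known for several p53 targets lie outside such windows.

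PPM1D, the phosphatase that switches off p53 and its upstream kinases, was the tested member of the feedback group. It read 7.51, 7.43 and 7.70 on the control arrays, 7.99, 7.79 and 7.82 with MELK siRNA, and 8.81, 7.73 and 7.65 with UBE2C siRNA. All 3 MELK siRNA arrays were above all 3 controls. The log2 fold change of 0.32 (SE 0.13) did not pass (adjusted p = 0.154, limma with 8 arrays). With UBE2C siRNA the change was 0.14 (SE 0.15) without replicate 1 and 0.52 with it.

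CDKN1A, which encodes the cyclin-dependent kinase inhibitor p21 and is the classical arrest target of p53, did not pass in either knockdown. It read 8.65, 8.69 and 8.69 on the control arrays, 8.60, 8.51 and 8.57 with MELK siRNA, and 9.61, 8.61 and 8.41 with UBE2C siRNA. The MELK siRNA arrays lay just below all controls, and of the UBE2C siRNA arrays replicate 1 lay above every other array and the other two below all controls. For MELK siRNA the log2 fold change was -0.12 (SE 0.11, adjusted p = 0.567, limma with 8 arrays). For UBE2C siRNA it was -0.17 (SE 0.12, adjusted p = 0.435) without replicate 1 and 0.20 (SE 0.28, adjusted p = 0.754) with it, so that array turns the sign.

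Of the other arrest and growth genes, none passed. TP53INP1, a stress-induced nuclear protein, read 6.64, 6.22 and 6.35 on the control arrays, 6.49, 6.71 and 6.63 with MELK siRNA, and 6.27, 6.83 and 6.78 with UBE2C siRNA. UBE2C siRNA replicates 2 and 3 lay above every other array, and the log2 fold change was 0.40 (SE 0.19, adjusted p = 0.215) without replicate 1 and 0.23 with it. For MELK siRNA it was 0.21 (adjusted p = 0.508), with overlapping arrays. GDF15, a secreted stress cytokine, had -0.06 and -0.08 in the knockdowns with 8 arrays, and 0.41 for UBE2C siRNA with replicate 1. CCNG1, an atypical cyclin, PLK2, a stress-response kinase, and ZMAT3, an RNA-binding growth suppressor, had log2 fold changes between -0.12 and 0.17, and with 9 arrays 0.27, 0.17 and -0.02 for UBE2C siRNA.

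RRM2B stood highest among the repair and nucleotide genes. Its tested probe, ILMN_2170595, read 7.20, 7.60 and 7.25 on the control arrays, 8.12, 8.09 and 7.89 with MELK siRNA, and 9.19, 8.08 and 7.71 with UBE2C siRNA. Every knockdown array was above every control array. The MELK siRNA level was 1.60-fold the control (log2 0.68, SE 0.15, adjusted p = 0.0143, limma with 8 arrays), and with 9 arrays, where the same difference had an SE of 0.34, the adjusted p was 0.931. The call was lost without control replicate 1 (adjusted p = 0.0523) and without MELK siRNA replicate 2 (0.0882), and was kept without any other array. For UBE2C siRNA the log2 fold change was 0.55 (SE 0.17, adjusted p = 0.0635) without replicate 1 and 0.98 (SE 0.34, adjusted p = 0.415) with it. A second RRM2B probe, ILMN_1698231, had a log2 fold change of -0.07 with MELK siRNA, and the mean of both probes 0.30 (adjusted p = 0.281). That probe read 6.35, 5.94 and 7.03 on the control arrays, 5.69, 6.55 and 6.86 with MELK siRNA, and 4.83, 6.69 and 6.89 with UBE2C siRNA. Its groups overlapped throughout, so the rise rests on 1 of 2 probes.

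RPS27L read 11.85, 11.94 and 11.93 on the control arrays, 12.06, 12.16 and 12.01 with MELK siRNA, and 12.68, 12.23 and 12.19 with UBE2C siRNA. The groups were fully ordered, with all UBE2C siRNA arrays above all MELK siRNA arrays and these above all controls. For UBE2C siRNA the log2 fold change was 0.31 (SE 0.08, adjusted p = 0.0434) with 8 arrays, a 1.24-fold level, and 0.46 (SE 0.16, adjusted p = 0.415) with 9. The call was lost without control replicate 1 (adjusted p = 0.0885) or 2 (0.0708), without MELK siRNA replicate 2 (0.0653), and without UBE2C siRNA replicate 2 (0.291) or 3 (0.196). For MELK siRNA it was 0.17 (SE 0.07, adjusted p = 0.18). RPS27 encodes a near-identical ribosomal protein, and whether its transcript shares signal with this probe was not tested.

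DDB2, a subunit of the UV damage sensor, read 6.25, 5.91 and 5.84 on the control arrays, 6.39, 6.41 and 6.23 with MELK siRNA, and 7.06, 6.17 and 6.28 with UBE2C siRNA. Control replicate 1 overlapped with both knockdowns, and neither log2 fold change, 0.34 (SE 0.19, adjusted p = 0.299) nor 0.22 (SE 0.21, adjusted p = 0.575, 8 arrays), passed. With 9 arrays the latter was 0.50. XPC, which recognises bulky DNA lesions, went the other way at -0.18 and -0.27 (adjusted p = 0.389 and 0.234), and at -0.16 with 9 arrays for UBE2C siRNA. AEN, an apoptosis-enhancing nuclease, was at 0.07 and -0.02, and at 0.21 with 9 arrays.

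TIGAR, SESN1 and TP53I3 form the tested metabolism and redox group, and all 3 had positive log2 fold changes in both knockdowns. TIGAR read 7.93, 8.11 and 8.05 on the control arrays, 8.25, 8.62 and 8.57 with MELK siRNA, and 8.02, 8.47 and 8.28 with UBE2C siRNA. The MELK siRNA arrays were all above the controls, while UBE2C siRNA replicate 1 lay among them. For MELK siRNA the level was 1.37-fold the control (log2 0.45, SE 0.13, adjusted p = 0.0462, limma with 8 arrays), with an adjusted p of 0.909 in the 9-array fit. The call was kept without MELK siRNA replicate 1 and lost without each of the other 7 arrays: without control replicate 1 (adjusted p = 0.123), 2 (0.0715) or 3 (0.0667), MELK siRNA replicate 2 (0.215) or 3 (0.143), and UBE2C siRNA replicate 2 (0.0714) or 3 (0.0705). For UBE2C siRNA the log2 fold change was 0.35 (SE 0.14, adjusted p = 0.155) without replicate 1 and 0.23 with it.

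SESN1, a stress-induced inhibitor of mTORC1 signalling, read 5.62, 5.82 and 5.76 on the control arrays, 6.26, 5.92 and 6.19 with MELK siRNA, and 6.49, 6.39 and 5.84 with UBE2C siRNA. Every knockdown array was above every control array. The SESN1 signal was above background on all 9 arrays but low, with unnormalised intensities of 134 to 167 where the background levels were 97.7 to 102. The log2 fold changes of 0.39 (SE 0.21, adjusted p = 0.285) and 0.38 (SE 0.23, adjusted p = 0.352, 8 arrays) did not pass, and the latter was 0.51 with 9 arrays. TP53I3, a quinone oxidoreductase, read 8.73, 8.15 and 8.43 on the control arrays, 8.89, 8.81 and 8.76 with MELK siRNA, and 8.76, 8.67 and 8.74 with UBE2C siRNA. Its MELK siRNA arrays were just above the highest control, and its UBE2C siRNA arrays reached from below to just above it. Neither the MELK siRNA change of 0.38 (SE 0.13, adjusted p = 0.0978) nor the UBE2C siRNA change of 0.26 (SE 0.15, adjusted p = 0.306, 8 arrays) passed. Without control replicate 1 the MELK siRNA change was 0.53 and passed (adjusted p = 0.0349). With 3 arrays against 3, or 3 against 2, an exact two-sided permutation test of a single member cannot go below 0.1. For MELK siRNA every member whose arrays lay apart from the controls reached that floor, RRM2B, TIGAR, SESN1 and TP53I3 among them. These were 11 of 39 members, higher or lower, where the arrays lay apart for 25.7% of all genes.

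**Figure D3:**
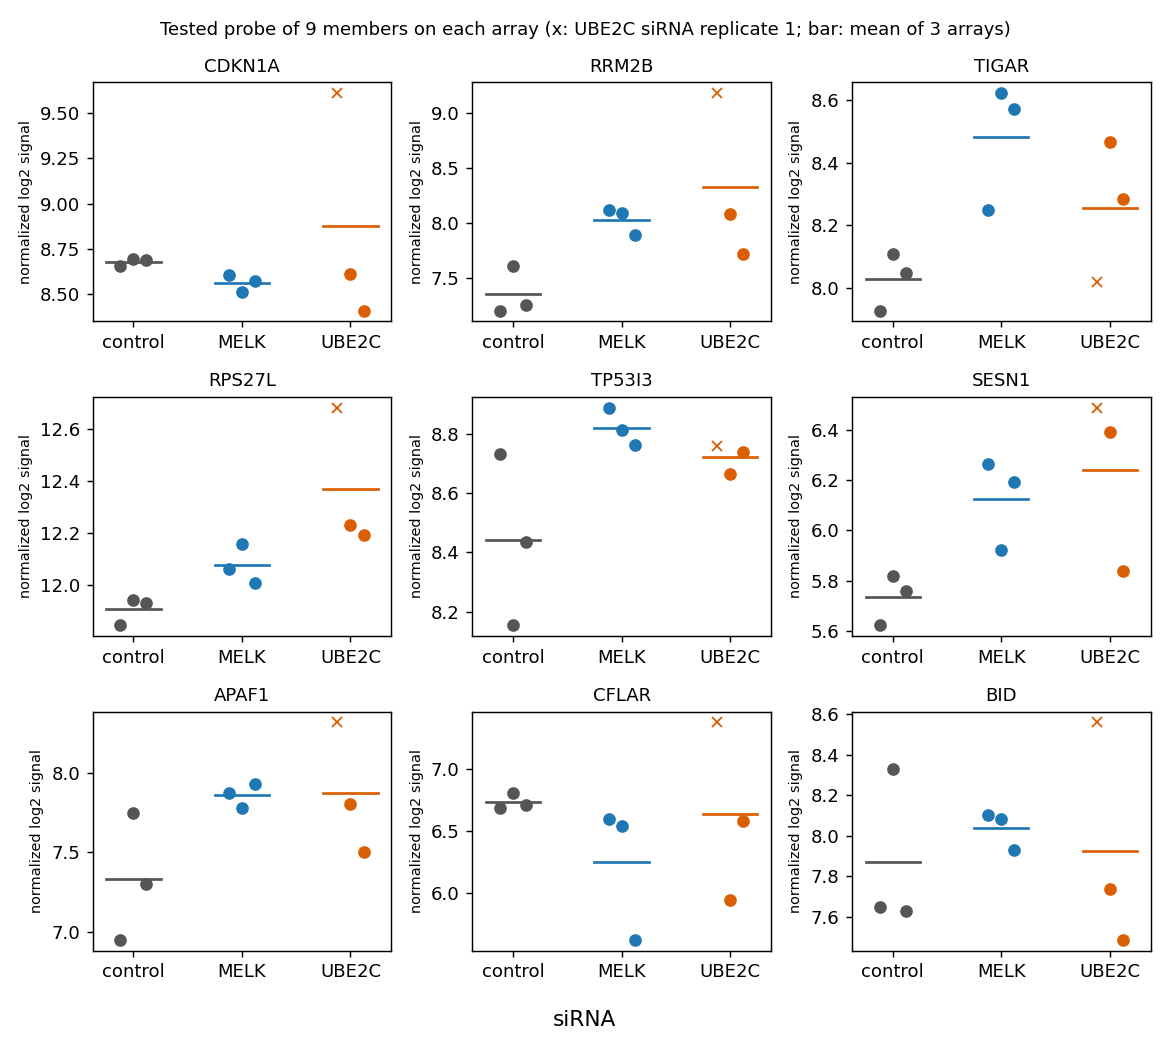
Normalised log2 signal of 9 members on each array by siRNA group; points are arrays, the cross is UBE2C siRNA replicate 1, and bars are means of 3 arrays (the vertical axes differ and do not start at 0). RRM2B, TIGAR, RPS27L, SESN1, TP53I3 and APAF1 have all MELK siRNA arrays above all controls, CDKN1A and CFLAR have them below, and in BID they overlap.

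Among the death receptors and their adaptors, CFLAR had the largest difference. It encodes c-FLIP, a caspase-like protein that blocks CASP8 activation at the receptor. Its probe read 6.69, 6.81 and 6.72 on the control arrays, 6.60, 6.54 and 5.63 with MELK siRNA, and 7.38, 5.95 and 6.59 with UBE2C siRNA. Each MELK siRNA array was below all controls, but MELK siRNA replicate 3 carried most of the difference, and UBE2C siRNA replicate 1 was the highest of all arrays. The log2 fold changes with 8 arrays were -0.48 (SE 0.24, adjusted p = 0.253) and -0.47 (SE 0.27, adjusted p = 0.319), and neither passed. With 9 arrays the latter was -0.10. FADD had 0.19 and 0.03, TNFRSF10A -0.01 and -0.05, and TNFRSF10B -0.07 and -0.16 (8 arrays), none past the threshold. With 9 arrays these UBE2C siRNA values were 0.35, -0.11 and 0.00.

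None of the 6 tested BH3-only genes passed. With 8 arrays BIK had the largest differences, 0.44 (SE 0.31, adjusted p = 0.429) with MELK siRNA and 0.47 (SE 0.34, adjusted p = 0.445) with UBE2C siRNA. Its signal was close to background, with values of 5.86, 5.56 and 4.60 on the control arrays that span more than either difference. BBC3 and PMAIP1 encode PUMA and NOXA, the BH3-only proteins most tied to p53. BBC3 had -0.12 in each knockdown, and PMAIP1 had 0.28 (adjusted p = 0.242) and 0.20 (adjusted p = 0.481). BAD, a sensitiser regulated by survival kinases, had -0.15 (SE 0.09) and -0.25 (SE 0.10, adjusted p = 0.146), and BCL2L11, which encodes BIM, had -0.16 and 0.18. With 9 arrays the UBE2C siRNA values were -1.34 for BAD, 0.55 for BCL2L11 and for PMAIP1, and 0.52 for BIK, and none passed. BID links the death receptor route to mitochondria and is taken up with the direct comparison of the knockdowns.

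The pore-forming effectors BAX, BAK1 and BOK all had negative log2 fold changes in both knockdowns, between -0.33 and -0.03 with 8 arrays, and none passed. With 8 arrays BOK had the largest, -0.20 (SE 0.17) with MELK siRNA and -0.33 (SE 0.19, adjusted p = 0.306) with UBE2C siRNA, and its arrays overlapped with the controls in both. BAX read 8.33, 8.20 and 8.26 on the control arrays, 8.13, 8.03 and 8.29 with MELK siRNA, and 6.09, 8.23 and 7.98 with UBE2C siRNA. UBE2C siRNA replicate 1 was far below every other array. With it the UBE2C siRNA changes were -0.83 for BAX, -0.81 for BOK and -0.44 for BAK1.

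Of the anti-apoptotic group, MCL1, a short-lived guardian of the mitochondrial membrane, had the largest difference with MELK siRNA. Its tested probe, ILMN_1803988, read 9.15, 9.73 and 9.08 on the control arrays, 9.93, 9.75 and 9.53 with MELK siRNA, and 9.52, 9.35 and 9.53 with UBE2C siRNA. The second control array lay among the MELK siRNA arrays, and the log2 fold change of 0.42 (SE 0.15, adjusted p = 0.119) did not pass. Without control replicate 2 it was 0.62 and passed (adjusted p = 0.0155). Another MCL1 probe gave -0.16. BCL2, the founding member, was above background with its tested probe on 3 control arrays, 1 MELK siRNA array and 0 UBE2C siRNA arrays. It had -0.35 in each knockdown (adjusted p = 0.474 and 0.528, limma with 8 arrays). That probe met the filter through the control arrays, where it was highest, so these values cannot show a fall. The other kept BCL2 probes gave -0.01 and 0.02 with MELK siRNA, and 0.23 and 0.34 with UBE2C siRNA (8 arrays). BCL2L2 had -0.24 and -0.29, BCL2L12 -0.17 and -0.07, and BCL2L1, which encodes BCL-XL, -0.07 and -0.11 (8 arrays). With 9 arrays the UBE2C siRNA values of these 3 were 0.10, -0.19 and -0.61.

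APAF1, the scaffold of the apoptosome, was the largest difference of the caspase group with MELK siRNA. It read 6.95, 7.75 and 7.30 on the control arrays, 7.87, 7.78 and 7.93 with MELK siRNA, and 8.32, 7.80 and 7.50 with UBE2C siRNA. All MELK siRNA arrays lay above all controls, by a small margin over the second control array. The log2 fold change was 0.53 (SE 0.17, adjusted p = 0.0779) for MELK siRNA and 0.32 (SE 0.19, adjusted p = 0.343) for UBE2C siRNA with 8 arrays, and neither passed. Without control replicate 2 the MELK siRNA change was 0.74 and passed (adjusted p = 0.0221), and with 9 arrays the UBE2C siRNA change was 0.54. CASP9, which the apoptosome activates, had 0.08 and -0.13, and CASP2 had -0.14 and 0.00. CASP6, an executioner caspase, had 0.17 and 0.27. With 9 arrays the UBE2C siRNA values of CASP9, CASP2 and CASP6 were 0.03, -0.05 and -0.21.

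HTRA2 and DIABLO are mitochondrial proteins that relieve caspases of their inhibitors when released. HTRA2 read 8.86, 8.74 and 8.77 on the control arrays, 8.62, 9.04 and 9.20 with MELK siRNA, and 4.89, 9.16 and 9.35 with UBE2C siRNA. UBE2C siRNA replicates 2 and 3 lay above all controls and replicate 1 was not above background. The UBE2C siRNA change was 0.47 (SE 0.15, adjusted p = 0.0737) without that array and -0.99 (SE 1.01, adjusted p = 0.657) with it, and a second HTRA2 probe gave -0.05 without it. Without MELK siRNA replicate 1 as well, the 0.47 passed (adjusted p = 0.029). DIABLO had 0.19 in each knockdown (adjusted p = 0.147 and 0.191), 0.29 with 9 arrays for UBE2C siRNA, with arrays that did not overlap with the controls.

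Between the knockdowns, no member passed the test. The limma test of MELK siRNA against UBE2C siRNA called 0 of 39 members with 8 arrays, where 0.0175% of all genes were called, and 0 with 9, where 0.00875% were. At an unadjusted p under 0.05, 1 member passed with 8 arrays, against 5.08% of all genes, and 0 with 9, against 2.94%. The arrays did not overlap for 8 of 39 members without UBE2C siRNA replicate 1, against 23.5% of all genes, and for 3 with it, against 9.17%. With 8 arrays BID had the largest difference, 0.43 higher with MELK siRNA (SE 0.19, adjusted p = 0.937). With 9 it was 0.11, and BAD (1.19, SE 0.76) and HTRA2 (1.15, SE 1.01) had the largest (adjusted p = 0.802 for both). BID read 7.65, 8.33 and 7.63 on the control arrays, 8.10, 8.08 and 7.93 with MELK siRNA, and 8.56, 7.74 and 7.49 with UBE2C siRNA. The control arrays spanned the MELK siRNA values, while UBE2C siRNA replicate 1 lay above all controls and replicate 3 below them. The differences of TP53INP1 (-0.20), PPM1D (0.18), CASP2 (-0.14), RPS27L (-0.14) and TP53I3 (0.12) were next in size among members above background on all 9 arrays whose groups lay apart, each with an SE of 0.08 to 0.19 with 8 arrays. With 9 they were -0.02, -0.20, -0.10, -0.29 and 0.10. Other kept probes of TP53INP1, CASP2 and TP53I3 had the opposite sign with 8 arrays, at 0.18, 0.13 and -0.23. Those of BID had the same sign as its tested probe, at 0.31 and 0.57. CASP2 read 11.35, 11.50 and 11.37 on the control arrays, 11.34, 11.22 and 11.22 with MELK siRNA, and 11.27, 11.46 and 11.35 with UBE2C siRNA. BCL2L11, above background on 8 arrays, had -0.34 (SE 0.28) with 8 arrays and -0.72 with 9. For RRM2B, TIGAR and CDKN1A the differences were 0.13 (SE 0.17), 0.11 (SE 0.14) and 0.05 (SE 0.12) with 8 arrays, and -0.30, 0.23 and -0.32 with 9. The misses do not show that the knockdowns act alike.

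Different probes of a member could disagree, and how often probes of other genes did so was not counted. Of the 20 members with at least 2 kept probes, the log2 fold changes of the probes differed by over 0.3 for 7 with MELK siRNA and for 4 with UBE2C siRNA (8 arrays). Between the knockdowns they did so for 13, and in any comparison for 15. The 7 were BAX, BCL2, BCL2L1, BID, DIABLO, MCL1 and RRM2B, and the 4 were BAD, BCL2, HTRA2 and TNFRSF10B. BAD had -0.25 with its tested probe and 0.35 and 0.00 with the others for UBE2C siRNA. TNFRSF10B had -0.16 and -0.69. BAX had -0.11 and 0.23 for MELK siRNA. For the same comparison DIABLO had 0.19 with its tested probe and 0.20 and -0.16 with the others. BCL2L1 had -0.07 with its tested probe and -0.40 with the other, and BID 0.17 with its tested probe and -0.01 and 0.50 with the others. Some of these probes lay near background: the kept BCL2 probes were above it on 4 to 6 arrays, and the BID probe at 0.50 on 5. Probes of one gene can detect different transcripts, and which of them the probes detect was not tested. Nor was the part of these differences that is noise near background.

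**Figure D4:**
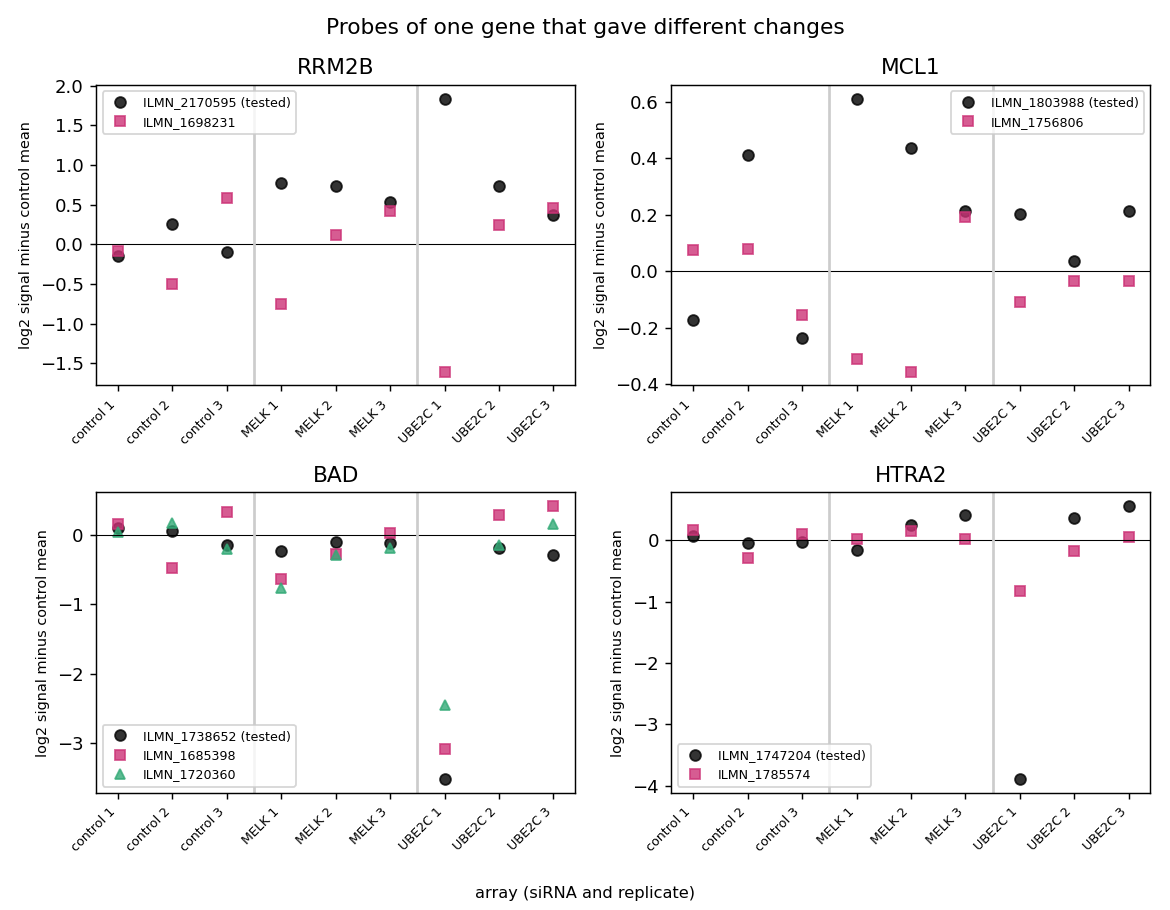
Log2 signal of each kept probe of RRM2B, MCL1, BAD and HTRA2 on each array, minus that probe's mean over the 3 control arrays; symbols are probes. The tested RRM2B and MCL1 probes lie above 0 on all MELK siRNA arrays while their second probes do not, and on UBE2C siRNA replicate 1 all 3 BAD probes and both HTRA2 probes lie below 0.

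Wider lists of the same pathways were also tested. Of 62 other p53 pathway genes 51 were tested, and with 8 arrays 1 rose and 4 fell with MELK siRNA, with a median of -0.04, against 2.29% and 3.22% of all genes. PERP, a desmosomal p53 target, rose by 0.40 (SE 0.10, adjusted p = 0.0299). HIPK2, a kinase that phosphorylates p53, fell by 0.56 (SE 0.14, adjusted p = 0.0318), CREBBP, a p53 acetyltransferase, by 0.53 (SE 0.13, adjusted p = 0.0231), IGFBP3, an IGF-binding protein, by 0.39 (adjusted p = 0.0299) and CMBL, a hydrolase, by 0.39 (adjusted p = 0.00908). With UBE2C siRNA 0 of the 51 rose and 2 fell, against 1.68% and 2.78% of all genes, with a median of -0.17 (-0.06 with 9 arrays): TSC2, an inhibitor of mTORC1, by 0.77 (SE 0.17, adjusted p = 0.0194), and HIPK2 by 0.71 (SE 0.16, adjusted p = 0.0235).

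Of 80 other apoptosis genes 53 were tested. With MELK siRNA 2 rose and 3 fell, with a median of -0.02, where 2.29% of all genes rose and 3.22% fell. CRADD, a death-domain adaptor of CASP2, rose by 0.41 (SE 0.11, adjusted p = 0.0449), and VDAC3, a mitochondrial channel, by 0.27 (adjusted p = 0.0381). RBCK1, a subunit of the linear ubiquitin ligase, fell by 0.43 (adjusted p = 0.0398), TAX1BP1, an autophagy adaptor, by 0.38 (adjusted p = 0.0421), and TNFRSF21, a death receptor, by 0.29 (adjusted p = 0.0345). CRADD also rose with UBE2C siRNA, by 0.54 (SE 0.13, adjusted p = 0.025), the single call of the 53, with a median of -0.03, where 1.68% of all genes rose and 2.78% fell. With all 9 arrays 0 of these genes passed in any comparison (limma); at an unadjusted p under 0.05, 5 of the 51 p53 pathway genes did with each siRNA, and 3 and 12 of the 53 apoptosis genes with MELK and UBE2C siRNA, against 5.39% and 11.1% of all genes.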

How the data were processed

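RNA of PC3 cells from 3 siRNA groups was measured on 9 Illumina bead arrays. The deposited values are linear bead intensities, not background-subtracted or scaled, each with a detection p-value per the file headers. The authors' deposited normalised table holds log2 values and was used only as an alternative. The submitters' processing notes name lumi with no version, and its settings are not given in the sources used here. Intensities were background-corrected and quantile-normalised with neqc in limma 3.58.1 (R 4.3.3, offset 16). Probes were kept that, on 3 or more arrays, lay above background with a detection p under 0.01 (19511 probes). The condition on the signal was added because the p was also small for 2428 to 3108 probes per array that lay below background. Of the 47323 probes, 30113 had 1 gene, 8 several and 17202 none in the platform annotation, and 4445 kept probes without 1 gene were left out. The brightest kept probe stood for a gene.

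Group means were compared with lmFit and eBayes, once over all 9 arrays without a trend and once over 8 arrays with an intensity trend and robust prior, and p-values were adjusted by Benjamini-Hochberg over 11428 genes (threshold 0.05). The fits were tested on simulated data. Promoter windows from RefSeq (GRCh38.p14) were searched for p53 half-sites. The members, the lists and the 8-array fit with its trend and robust prior were chosen with earlier results of these data known. Named with all array values were CDKN1A, MDM2, every called member and, per comparison, up to 6 members above background on all 9 arrays with the largest changes among those whose groups lay apart. The leading member of each role and members whose probes disagreed in a knockdown against control were named with fold changes. Members whose probes disagreed only between the knockdowns were not all named as such. DDB2, BAX, HTRA2, MCL1 and BIK were given array values after these were seen. Equal replicate numbers were not taken as pairs in the reported fits. Correlations of deviations from group means ran from -0.125 to 0.245 for equal numbers, and 4 of 9 exceeded 0.1. For unequal numbers they ran from -0.244 to 0.227, and 4 of 18 exceeded 0.1. The UBE2C siRNA means included replicate 1, so the correlations with any array of that group carry its departure. Whether arrays of equal number share an origin was not tested. Alternatives covered normalization, filter, probe choice, spread model, array weights, a replicate block and leaving out each array. The precision is limited by the number of arrays.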

Additional observations from a re-analysis of the deposited data

How the results depend on the processing

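The 3 calls need both the removal of UBE2C siRNA replicate 1 and the trended, robust prior: neither change alone called a member. The count of members called for MELK siRNA with 8 arrays, 2 as reported, was 1 with median scaling, with no filter, with the mean of probes, with each probe tested and with 2 groups only, and 0 with the detection p alone and with no trend and no robust prior. For UBE2C siRNA the count, 1 as reported, was 0 with median scaling, the detection p alone, no filter, each probe tested, no trend and the replicate block, 2 with cyclic loess and 3 with array weights. With 2 groups only the 1 call was HTRA2 (adjusted p = 0.0463) in place of RPS27L (0.0564). Leaving out each array in turn gave 0 to 3 and 0 to 2. Counts for MELK siRNA against UBE2C siRNA, and all counts with 9 arrays, were 0 in every alternative run. RRM2B was called in 16 of 21 alternatives with MELK siRNA (adjusted p 0.00682 to 0.281), TIGAR in 8 of 21 (0.0153 to 0.215) and RPS27L in 9 of 21 with UBE2C siRNA (0.0235 to 0.291). The members above background in each group (38, 37 and 39) did not change in number with the detection p alone. A one-sided detection p, an alternative chosen after seeing the data, gave the reported count of called members in each comparison and fit. The replicate block changed no other call. Median scaling moved the median of all genes for MELK siRNA from 0.00 to 0.09.

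Signs turned in small differences, and apart from the arrays left out the cause was not tested. Between the knockdowns with 9 arrays, TP53INP1 became 0.17 with median scaling, 0.13 with cyclic loess and 0.16 with the mean of probes (-0.20 to 0.084 on leaving out arrays), CASP2 0.21 and TP53I3 -0.13 with the mean of probes, and PPM1D 0.12 with array weights (-0.40 to 0.18 on leaving out arrays). BID ran from -0.11 to 0.43 on leaving out arrays. With 8 arrays TP53I3 became -0.058 with the mean of probes. For UBE2C siRNA with 9 arrays CDKN1A became -0.11 with array weights (-0.17 to 0.43 on leaving out arrays) and CFLAR ran from -0.47 to 0.24.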

Other observations

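UBE2C siRNA replicate 1 moved the members unequally, as seen after inspecting the values. Of the 39 members, 4 had a UBE2C siRNA log2 fold change that moved by over 0.5 when that array was added: HTRA2 from 0.47 to -0.99, BAD from -0.25 to -1.34, BAX from -0.16 to -0.83 and BCL2L1 from -0.11 to -0.61. The sign changed for 9 of 39. Departures by over 1 on the log2 scale from the other arrays of the group, with UBE2C siRNA replicate 1 never part of that reference and replicates 2 and 3 set against each other alone, were found on that array for 15 of 39 tested probes and 14 of 27 other kept probes. The same shares over all genes were not counted. The median absolute departure on that array was 0.669 over all genes and 0.665 for the members, so the departure was not particular to the members.

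Tested probes departed in both directions, 7 lower and 8 higher. The other kept probes of the same members were 12 lower and 2 higher. Among the other 8 arrays, such departures numbered 1 of 39 tested probes, on control replicate 3, and 1 of 27 other probes, on MELK siRNA replicate 1. The ZMAT3 probe ILMN_1654262 read 4.64 on UBE2C siRNA replicate 1 and 7.80 to 8.64 on the other arrays, while the tested ZMAT3 probe read 11.71 there and 11.61 to 12.28 elsewhere. What sets these probes apart was not tested.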
